A study of Mus musculus with 6 samples.

Results

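Tubulin mRNA was examined in a mouse lung cancer cell line, 889, of the C57BL/6 strain, through the 10 tubulin genes Tuba1a, Tuba1b, Tuba1c, Tuba4a, Tubb2a, Tubb2b, Tubb3, Tubb4b, Tubb5 and Tubb6, taken by gene name from the 34745 genes listed for every library. The rule takes them by name and uses no measured value, but the set was chosen with earlier results of these data known. Bulk RNA was sequenced from 3 libraries of cells carrying Cas9 with a control sgRNA (sgcontrol, labelled control) and from 3 libraries of cells carrying Cas9 with kiaa1522 sgRNA (sgkiaa1522, labelled KIAA1522-downregulated). Both groups carried a lentiviral CRISPR construct, and the control sgRNA was directed at EGFP. The labels give no time point, do not name which kiaa1522 sgRNA the sequenced cells carried and do not say whether the libraries came from separate cultures, so p-values measure only the spread between these libraries, which may be technical. The libraries held between 12220001 and 18609376 counts. One of them, sgcontrol replicate 1, stood apart from its group: over the genes with more than 500 counts in sum, chi-square over its degrees of freedom was 23.4 and 30.7 against the other sgcontrol libraries and between 12.3 and 12.8 for every other pair of the same label. In bulk RNA, fewer cells of a type and less RNA per cell cannot be told apart.

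The targeted gene checks the labels. C77080, the mouse name of kiaa1522, had 2214, 2404 and 2064 counts in the libraries labelled sgcontrol and 2554, 3726 and 3667 in those labelled sgkiaa1522. Its mRNA was higher, not lower, in the latter, with a log2 fold change of 0.73 (SE 0.0569, adjusted p = 9.1e-05). The mRNA level does not measure a frameshift or the protein, so every direction below is between libraries as labelled. Each adjusted p is from the quasi-likelihood test of edgeR, adjusted by the Benjamini-Hochberg method over 10046 tested genes, and a fold change is sgkiaa1522 over sgcontrol.

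The labelled tissue is lung. Keratin mRNAs Krt8, Krt18 and Krt19 were abundant and Epcam was at 0 counts in every library. The 5 epithelial markers summed to between 3810 and 4575 CPM in the libraries labelled sgcontrol and between 3218 and 3498 in those labelled sgkiaa1522. CPM is counts relative to the summed counts of the tested genes in a library, with that sum scaled by its TMM factor. All 4 tested epithelial markers were called lower, as were 26.3% of all tested genes, but Krt18 overlapped between the groups (adjusted p = 0.0496). The 5 lung epithelial markers summed to between 20.7 and 81.6 CPM and between 12.2 and 45.8 CPM, and the 4 mesenchymal markers to between 4221 and 4443 CPM and between 4724 and 5162 CPM. Nearly all of the mesenchymal sum was Vim, the 1 marker called higher, while Pdgfrb was called lower, Zeb1 did not pass and Col1a1 was under the filter (6.03 to 8.22 against 1.58 to 2.00 CPM). The 4 leukocyte markers summed to between 1.40 and 2.12 CPM and between 10.3 and 12.9 CPM, in the latter nearly all of it Cd68, while Ptprc had at most 14 counts, Cd3e had 0 and Cd79a had at most 2. The 5 neuronal markers summed to between 2.81 and 5.70 CPM and between 2.02 and 2.88 CPM, with Rbfox3 and Elavl3 at no more than 2 counts and Elavl4 at 0. Most of that sum was Syp, under the filter, with 2.70, 3.02 and 5.52 against 2.47, 1.64 and 1.59 CPM. Snap25, with at most 8 counts, was higher in the libraries labelled sgkiaa1522. The 3 endothelial markers summed to at most 1.38 CPM. The part of these marker differences in the tubulin results was not tested.

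Microtubules are hollow polymers of dimers, each made of an alpha- and a beta-tubulin, and they form the mitotic spindle, the tracks of vesicle transport and the core of cilia. Mammals carry several genes for each kind, and the products, called isotypes, are nearly alike along most of their length and differ mainly in the acidic tail at the carboxyl end, where many enzymes modify them. Cells also adjust the stability of tubulin mRNA to the amount of free dimer: the factor TTC5 recognises the first residues of a nascent tubulin on the ribosome and leads to decay of the mRNA it is being made from. Tubb5 and Tuba1b are widely used isotypes of dividing cells, while Tubb3, Tubb2a and Tubb2b are best known from neurons.

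The start of the coding sequence is shown because it encodes the residues read in this feedback. The first 30 coding bases are from GENCODE M21 transcripts of GRCm38, with the first 4 codons in capitals.
Tuba1a: ATGCGTGAGTGCatctccatccatgttggc
Tuba1b: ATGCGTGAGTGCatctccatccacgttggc
Tuba1c: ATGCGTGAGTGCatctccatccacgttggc
Tuba4a: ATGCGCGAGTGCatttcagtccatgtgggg
Tubb2a: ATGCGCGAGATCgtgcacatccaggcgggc
Tubb2b: ATGCGAGAGATCgtgcacattcaggcgggc
Tubb3: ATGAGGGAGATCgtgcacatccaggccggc
Tubb4b: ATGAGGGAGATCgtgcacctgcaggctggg
Tubb5: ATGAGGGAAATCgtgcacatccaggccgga
All 4 alpha-tubulin genes have TGC as the fourth codon, and the 5 beta-tubulin genes shown have ATC.

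The end of the coding sequence is shown for 4 genes because the isotypes differ there and because Tubb2a and Tubb2b show how alike neighbouring genes can be. The last 60 coding bases are given with the last codon and the stop codon in capitals, from the same source.
Tuba1c: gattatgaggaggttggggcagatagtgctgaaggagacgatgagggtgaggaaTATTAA
Tuba4a: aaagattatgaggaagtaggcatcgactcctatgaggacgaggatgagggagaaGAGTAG
Tubb2a: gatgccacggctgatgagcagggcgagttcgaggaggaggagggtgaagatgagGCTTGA
Tubb2b: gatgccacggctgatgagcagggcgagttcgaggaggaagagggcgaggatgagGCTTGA
Tuba1c ends in a tyrosine codon (TAT) before the stop, the residue that the enzyme TTL can put back, whereas Tuba4a ends in GAG. The whole coding sequences were 98.3% identical between Tuba1a and Tuba1b, 97.9% between Tuba1b and Tuba1c, and 96.5% between Tubb2a and Tubb2b. Alpha pairs as a whole ranged from 84.7% to 98.3%, beta pairs from 80.2% to 96.5% and alpha with beta from 55.8% to 57.7%.

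This likeness limits how reads divide among the genes. Of all 100-base windows of its transcripts, 61.7% in Tuba1b, 852 of 1704 in Tuba1a, 46.0% in Tuba1c, 36.9% in Tubb2a, 26.0% in Tubb2b and 20.98% in Tubb4b also occur in a transcript of another annotated gene that does not overlap it, mostly another tubulin gene or a tubulin pseudogene. Genes that overlap a tubulin gene on the chromosome were left out of its count, among them Gm49450 for Tuba1a and Tuba1b and Stk16 for Tuba4a. Apart from such overlaps, no shared window was found in Tuba4a, Tubb3, Tubb5 or Tubb6. The authors counted uniquely mapped fragments, so levels of the first 6 genes are uncertain and may be too low. The genes sit in GRCm38 at chr15:98949837-98953703 for Tuba1a, chr15:98931425-98934565 for Tuba1b and chr15:99029891-99038110 for Tuba1c, 3 neighbours within 106686 bases. Tubb2a (chr13:34074274-34078007) and Tubb2b (chr13:34126748-34130466) are also neighbours. Tuba4a (chr1:75214228-75219865), Tubb3 (chr8:123411424-123422015), Tubb4b (chr2:25222160-25224702), Tubb5 (chr17:35833921-35838306) and Tubb6 (chr18:67390717-67402749) stand apart from them. Each has 4 exons, all of them coding, in its main transcript.

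Of the 10 tubulin genes, 6 fell in the libraries labelled sgkiaa1522 (Tuba1a, Tuba1b, Tuba1c, Tubb2a, Tubb5 and Tubb6), none rose and 4 did not pass the test (Tuba4a, Tubb2b, Tubb3 and Tubb4b). Across all tested genes 26.3% fell and 26.3% rose, and 52.5% passed in either direction. All 10 passed the filter of more than 500 counts over the libraries. The median log2 fold change of the 10 was -0.41, beside -0.0067 for all tested genes. The middle 50% of all tested genes lay between -0.33 and 0.31. Only Tuba1b also reached a log2 fold change of -1, which 4.34% of tested genes did, beside 2.74% that reached 1. CPM did not overlap between groups for the 6 genes that fell, with every library labelled sgkiaa1522 the lower, as in 31.1% of tested genes, beside 30.6% with every such library the higher. The number that fell was 4 or 5 when any 1 library was left out, since Tuba1a or Tubb2a or both were then lost. Without sgcontrol replicate 1, whose summed tubulin CPM was the lowest of its group (3788 against 4283 and 4356), 5 fell: Tuba1b (-1.11), Tuba1c (-0.71), Tubb6 (-0.61), Tubb2a (-0.39) and Tubb5 (-0.37).

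**Figure D1:**
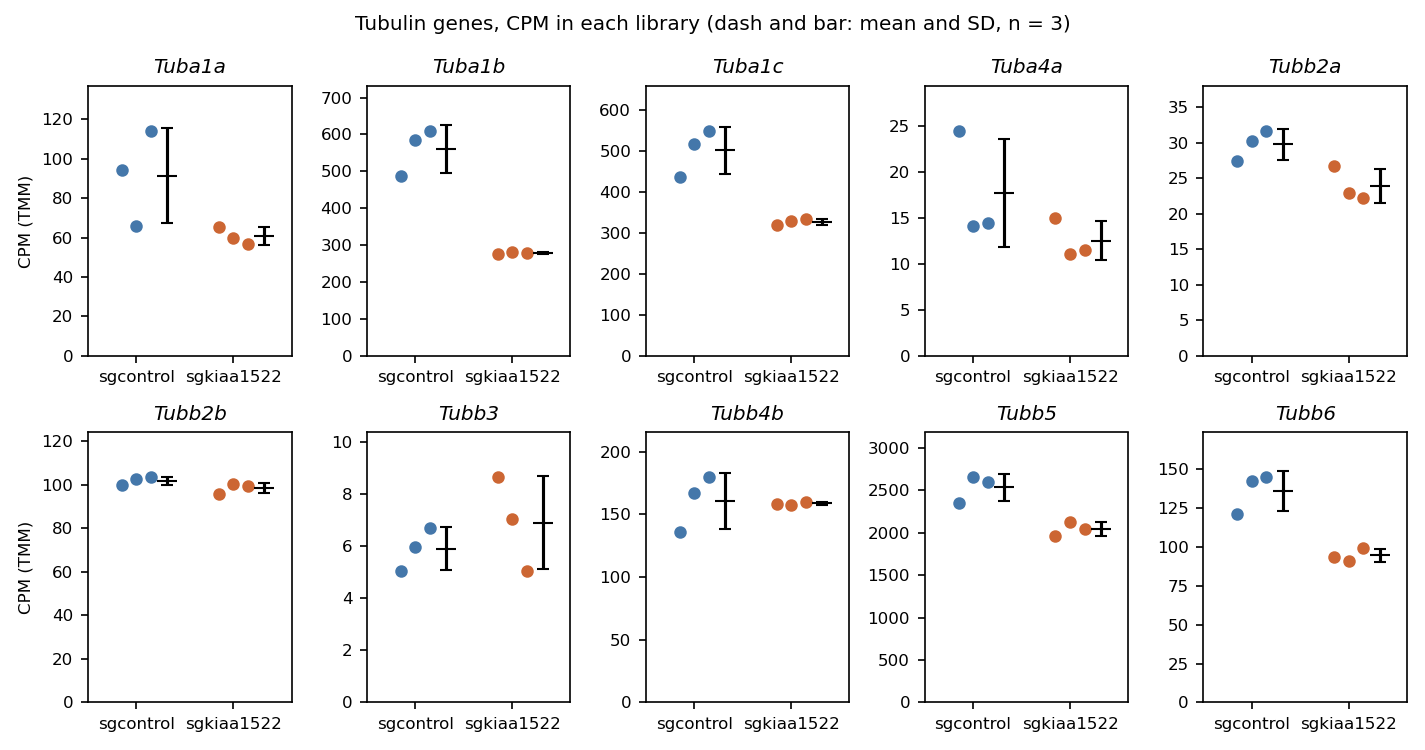
CPM of each tubulin gene in each library, 1 panel a gene, with the axis starting at 0; points are libraries in replicate order and the dash with bar is the mean and SD (n = 3). The 3 libraries labelled sgkiaa1522 lie below all 3 labelled sgcontrol for Tuba1b (275 to 282 against 487 to 609 CPM) and overlap them for Tubb2b.

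Among the alpha-tubulin genes, Tuba1b, the main alpha isotype of many dividing cells, had the largest fall. Its CPM was 487, 585 and 609 in the libraries labelled sgcontrol and 275, 282 and 279 in those labelled sgkiaa1522. The highest of the latter was far below the lowest of the former, and the spread was 64.9 CPM (SD, n = 3) in the first group against 3.19 CPM in the second. The mean went from 560 to 279 CPM, a 2.01-fold difference, with a log2 fold change of -1.01 (SE 0.0883, 95% interval -1.21 to -0.80, adjusted p = 1.3e-04). It fell short of a log2 fold change of -1 when sgcontrol replicate 2, sgcontrol replicate 3 or sgkiaa1522 replicate 1 was left out, and over the single libraries left out it ranged from -1.11 to -0.95.

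Tuba1c, from the same cluster on chromosome 15 as Tuba1b, had 438, 519 and 550 CPM in the libraries labelled sgcontrol. It had 321, 329 and 335 CPM in those labelled sgkiaa1522. The groups were apart, and again the second was the tighter one. Means with SD over 3 libraries were 502 ± 57.6 and 328 ± 7.09 CPM, and the fitted log2 fold change was -0.61 (SE 0.0876, 95% interval -0.82 to -0.41, adjusted p = 0.0010).

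Tuba1a, the alpha isotype prominent in developing neurons, had 94.3, 65.9 and 114 CPM in the libraries labelled sgcontrol. It had 65.6, 59.9 and 56.8 CPM in those labelled sgkiaa1522. The groups almost touched, because sgcontrol replicate 2 was close to sgkiaa1522 replicate 1. The log2 fold change was -0.59 (SE 0.183, 95% interval -1.02 to -0.16, adjusted p = 0.029). The call was lost when sgcontrol replicate 1 or 3 or any of the libraries labelled sgkiaa1522 was left out, with adjusted p of 0.058, 0.073, 0.051, 0.080 and 0.088 in that order. The gene Gm49450, on the same strand, covers 26.2% of the exon length of Tuba1a and 22.7% of that of Tuba1b, and no value of it was analysed here.

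Tuba4a, the alpha isotype without a terminal tyrosine codon, had 24.4, 14.1 and 14.5 CPM in the libraries labelled sgcontrol and 14.99, 11.1 and 11.5 CPM in those labelled sgkiaa1522. Replicate 1 was the highest library of each group, and the groups overlapped. The log2 fold change was -0.50 (SE 0.237, 95% interval -1.06 to 0.05, adjusted p = 0.11), so a fall of the size seen in Tuba1c lies within the interval. With single libraries left out it ranged from -0.65 to -0.21, the smallest fall being without sgcontrol replicate 1 (adjusted p = 0.28). Stk16, on the opposite strand, overlaps 37.3% of the exon length of Tuba4a and itself fell by 0.41 on the log2 scale (36.2 to 27.2 CPM, adjusted p = 0.018). The strand setting of the counting is not given in the sources used here.

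Among the beta-tubulin genes, Tubb5, the main beta isotype of many dividing cells and the most abundant beta-tubulin mRNA here by TPM, fell. Its CPM was 2355, 2652 and 2603 in the libraries labelled sgcontrol and 1961, 2122 and 2048 in those labelled sgkiaa1522. The groups were apart. Tubb5 took between 0.195% and 0.265% of all counts. With means of 2536 ± 159 and 2044 ± 80.6 CPM over 3 libraries each, its log2 fold change was -0.31 (SE 0.0642, 95% interval -0.46 to -0.16, adjusted p = 0.0051).

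Tubb6, a beta isotype of many tissues that is abundant in differentiating muscle, had 121, 142 and 145 CPM in the libraries labelled sgcontrol. It had 93.5, 90.8 and 99.1 CPM in those labelled sgkiaa1522. All of the latter lay below 100 CPM and all of the former above 120. The log2 fold change was -0.52 (SE 0.0847, 95% interval -0.72 to -0.33, adjusted p = 0.0018).

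The neighbours Tubb2a and Tubb2b gave unequal results. Tubb2a had 27.4, 30.3 and 31.7 CPM against 26.7, 22.9 and 22.2 CPM, and its log2 fold change was -0.32 (SE 0.106, 95% interval -0.57 to -0.07, adjusted p = 0.037). The lowest library labelled sgcontrol and the highest labelled sgkiaa1522, both replicate 1, were close together. The call for Tubb2a was lost without sgcontrol replicate 2 or 3 and without sgkiaa1522 replicate 2 or 3, with adjusted p of 0.092, 0.10, 0.12 and 0.13, and when every gene of at least 1 count was tested (adjusted p = 0.053). Tubb2b had 99.9, 103 and 103 CPM against 96.1, 101 and 99.3 CPM. These groups overlapped and were both tight, with a log2 fold change of -0.05 (SE 0.0576, 95% interval -0.18 to 0.09, adjusted p = 0.52).

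Tubb4b, a widely expressed beta isotype that is also used in cilia, had 136, 167 and 179 CPM against 159, 158 and 160 CPM. The libraries labelled sgkiaa1522 lay within the range of the others. Its log2 fold change was -0.02 (SE 0.101, 95% interval -0.25 to 0.22, adjusted p = 0.89). Its sign turned without sgcontrol replicate 2 (3.7e-04) or replicate 3 (0.062). The pseudogene Tubb4b-ps1, which holds 19.7% of the 100-base windows of Tubb4b, had 464, 600 and 503 counts against 336, 482 and 484 counts, a log2 fold change of -0.11 (adjusted p = 0.36).

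Tubb3, the beta isotype that marks neurons and has been linked to resistance to taxanes in carcinomas, was low in every library. It had 88, 111 and 112 counts in the libraries labelled sgcontrol and 105, 129 and 86 in those labelled sgkiaa1522, or 5.05, 5.99 and 6.72 CPM against 8.65, 7.04 and 5.07 CPM. The groups overlapped, and the log2 fold change was 0.21 (SE 0.215, 95% interval -0.29 to 0.72, adjusted p = 0.43). It was 0.036 without sgkiaa1522 replicate 1 and 0.40 without sgkiaa1522 replicate 3, the extremes over the single libraries left out. A change of either sign is within the 95% interval at this depth.

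**Figure D2:**
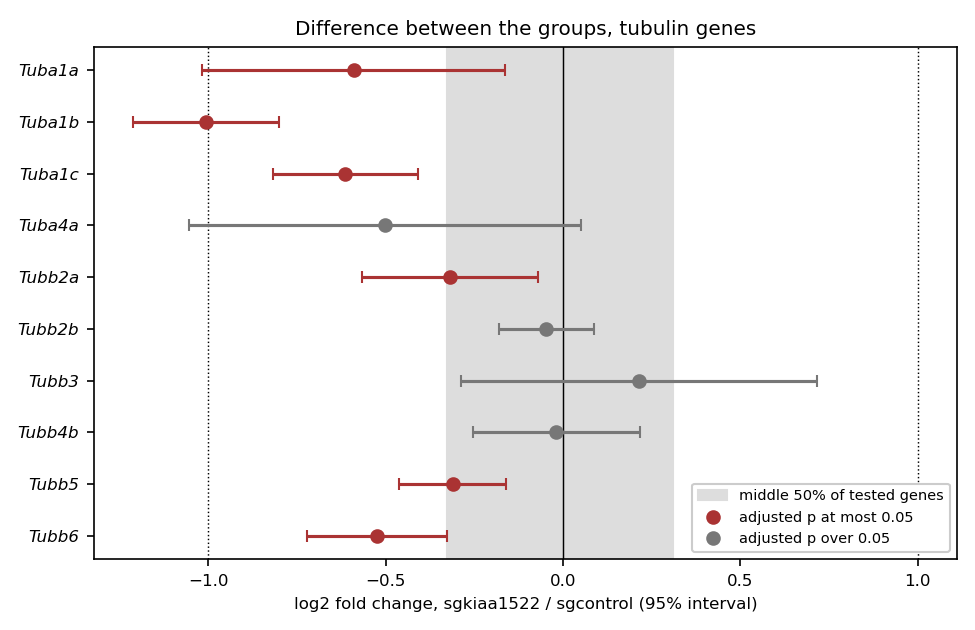
Fitted log2 fold change of each tubulin gene (point) with its 95% interval (bar); the grey band is the middle 50% of all tested genes and dotted lines mark a log2 fold change of -1 and 1. The intervals of the 6 genes that fell end below 0, and Tuba1b at -1.01 is farthest from 0.

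By summed level, a description with no test, the alpha class differed more than the beta class. Alpha-tubulin mRNA summed to 1044, 1183 and 1288 CPM in the libraries labelled sgcontrol and to 677, 682 and 682 CPM in those labelled sgkiaa1522, a difference of means of -41.9%. Beta-tubulin mRNA summed to 2744, 3100 and 3068 CPM against 2345, 2501 and 2434 CPM, a difference of means of -18.3%. Neither sum overlapped between groups. Of the 4 alpha genes 3 fell, with a median log2 fold change of -0.60, and of the 6 beta genes 3 fell, with a median of -0.18, beside 26.3% of all tested genes that fell. The ratio of summed alpha to summed beta TPM (a level per exon length) was 0.576, 0.578 and 0.635 in the first group and 0.427, 0.407 and 0.416 in the second. Its size depends on the lengths used: means were 0.596 and 0.417 here, 0.397 and 0.278 with the mean transcript length, and 1.28 and 0.869 with lengths reduced by the windows shared with other genes. The second group was the lower one, without overlap, on each of these scales, but which class is the larger was not settled. All 10 genes together took between 0.377% and 0.438% of all counts in the libraries labelled sgcontrol and between 0.300% and 0.314% in those labelled sgkiaa1522.

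Levels between genes were compared only per length, as TPM (counts over summed exon length, scaled to the same total in each library). In the libraries labelled sgcontrol the order by mean TPM was Tubb5 (1953), Tuba1b (765), Tuba1c (562), Tubb4b (197), Tubb6 (143), Tuba1a (130), Tubb2b (114), Tubb2a (47.4), Tuba4a (12.3) and Tubb3 (8.11). The ranges of Tubb6, Tuba1a and Tubb2b overlapped from each to the next in that order, and the other neighbours were apart. In those labelled sgkiaa1522 Tubb5 led with 1680 TPM, Tuba1b (407) and Tuba1c (393) overlapped, and Tubb2b (118) stood above Tubb6 (106) and Tuba1a (92.2). Tubb3 (10.1) and Tuba4a (9.26) came last there in the reverse order, with overlapping ranges. With lengths reduced by the windows shared with other genes, Tuba1b reached 1994 TPM in the first group and overlapped Tubb5 there (1950), so which of the pair leads depends on how shared sequence is treated. On that scale Tuba1a also moved up, to 259.8 and 184 TPM, and in the second group stood above Tubb2b (159).

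The isotype makeup differed within each class. Tuba1b made up 50.9%, 53.9% and 51.4% of alpha TPM in the libraries labelled sgcontrol and 44.8%, 45.5% and 45.1% in those labelled sgkiaa1522. Tuba1c went the other way, from a mean of 38.2% ± 0.826 to 43.6% ± 0.779 (SD, n = 3), although its own level fell. Both shares were without overlap between groups.

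Within the beta class Tubb5 held 79.3% ± 0.697 of TPM in the first group and 77.7% ± 0.820 in the second. Tubb6 went from 5.79% to 4.91%, Tubb4b from 7.99% to 9.63% and Tubb2b from 4.64% to 5.44%, each without overlap. Shares of a class add up to its whole, so a higher share of Tubb4b or Tubb2b, whose own levels did not pass the test, is not a rise of that gene. Shares of Tuba1a, Tuba4a, Tubb2a and Tubb3 overlapped between the groups. The direction of all 10 mean shares was the same with the mean transcript length and with the reduced lengths.

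**Figure D3:**
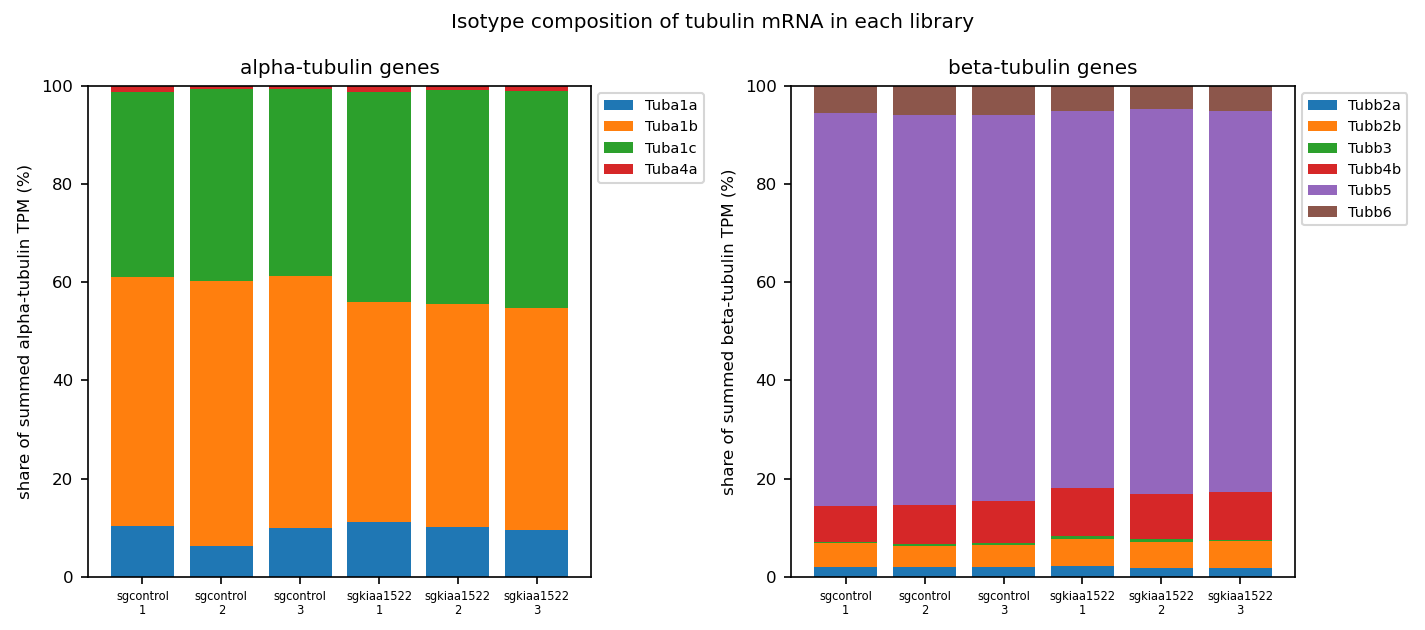
Stacked share (%) of each gene in the summed TPM of the 4 alpha-tubulin genes (left) and of the 6 beta-tubulin genes (right), 1 bar a library. Tuba1b takes over 50% of alpha TPM in each library labelled sgcontrol and under 46% in each labelled sgkiaa1522, and Tubb5 takes most of beta TPM in every library.

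Promoters are shown for Tuba1b, Tuba1c and Tubb5, abundant genes that fell, and for Tubb4b, an abundant gene that did not pass the test. Each holds the 250 bases before the start of the gene in RefSeq (GRCm38.p6), read 5′ to 3′ on the strand of the gene. Capitals mark CCAAT, the CCAAT box, and GGGCGG, the GC box, on either strand; the marked matches do not overlap.
Tuba1b, chr15:98934391-98934640 (minus strand): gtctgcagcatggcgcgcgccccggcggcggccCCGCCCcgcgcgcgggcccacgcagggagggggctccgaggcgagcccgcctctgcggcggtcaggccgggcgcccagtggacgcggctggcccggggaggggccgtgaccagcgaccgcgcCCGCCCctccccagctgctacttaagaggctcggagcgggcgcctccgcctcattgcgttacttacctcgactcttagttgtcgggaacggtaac
Tuba1c, chr15:99029641-99029890 (plus strand): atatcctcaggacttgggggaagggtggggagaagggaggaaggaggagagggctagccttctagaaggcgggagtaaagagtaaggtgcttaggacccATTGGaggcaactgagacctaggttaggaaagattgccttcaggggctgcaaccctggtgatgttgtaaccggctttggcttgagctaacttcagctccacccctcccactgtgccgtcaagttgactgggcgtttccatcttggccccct
Tubb5, chr17:35838302-35838551 (minus strand): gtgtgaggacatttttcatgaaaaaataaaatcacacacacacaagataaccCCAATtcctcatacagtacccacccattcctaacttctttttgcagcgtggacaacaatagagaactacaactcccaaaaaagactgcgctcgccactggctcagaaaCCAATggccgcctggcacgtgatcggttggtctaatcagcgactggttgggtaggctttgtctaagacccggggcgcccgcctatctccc
Tubb4b, chr2:25224703-25224952 (minus strand): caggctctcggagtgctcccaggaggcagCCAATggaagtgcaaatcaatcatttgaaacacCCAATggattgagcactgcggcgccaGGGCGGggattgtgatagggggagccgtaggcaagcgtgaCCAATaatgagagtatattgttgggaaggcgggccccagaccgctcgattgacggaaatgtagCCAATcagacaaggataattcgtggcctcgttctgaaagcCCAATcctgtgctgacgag
Tuba1b has 2 GC boxes and no CCAAT box in this window, Tuba1c has 1 CCAAT box, Tubb5 has 2 and Tubb4b has 5 with 1 GC box. Of 32851 promoters of this length 33.85% hold CCAAT and 32.74% hold GGGCGG. Promoters of 8 of the 10 genes were matched, all but Tubb2b and Tubb6. Among the 8, CCAAT was in 5 and GGGCGG in 6. TATAAA (12.37% of promoters) and the CRE TGACGTCA (1.55%) were each in Tubb2a only, and TTTGAA, the CHR element (15.99%), was in Tubb4b only. The E2F letters TTTCCCGC, TTTGGCGC, TTTCGCGC and TTTGCCGC, which 1.86% of promoters hold, and the CArG box (1.47%) were in none. These are matches of letters on either strand, not sites.

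Genes near the tubulin genes are read against the 26.3% of all tested genes that fell and the 26.3% that rose. Within 250 kb of the Tuba1a, Tuba1b and Tuba1c cluster 13 other genes were tested, of which 1 fell and 3 rose, with log2 fold changes from -0.64 to 3.19. Around Tubb5, of 19 tested neighbours 6 fell and 3 rose, and around Tubb6, of 7 tested neighbours 3 fell and 1 rose. Of the 7 genes near Tubb2a and Tubb2b, 1 fell and 3 rose. Near Tuba4a 4 of 12 fell and 1 rose, near Tubb3 2 of 11 fell and 2 rose, and near Tubb4b 3 of 20 fell and 4 rose. With so few genes at each place, these counts are a description and nothing is read from them.

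The other tubulin genes were low or passed no test. Tubg1, the gamma-tubulin of microtubule nucleation, had 1179, 1476 and 1278 counts against 848, 1212 and 1170 counts (log2 fold change -0.13, adjusted p = 0.22, and -0.20 with adjusted p = 0.026 without sgcontrol replicate 1). Tubd1, the delta-tubulin of centrioles, had 120, 107 and 111 counts against 87, 176 and 136 (0.37, adjusted p = 0.078). Neither was called over all libraries. Tubb4a, a beta isotype of brain and of oligodendrocytes, and Tube1, the epsilon-tubulin of centrioles, were under the filter. Tubb4a had 46, 53 and 42 counts against 63, 89 and 51, and Tube1 had 106, 101 and 94 against 32, 63 and 64. Neither pair of groups overlapped in CPM. With every gene of at least 1 count tested, Tubb4a was higher (log2 fold change 0.70, adjusted p = 0.034) and Tube1 lower (-0.78, adjusted p = 0.0054). Tuba3a and Tubal3 were at 0 counts in all libraries, which allows up to 0.162 to 0.247 CPM (3 counts of a library, counting error only). Tuba3b and Tuba8 had at most 7 counts, Tubb1 at most 2 and Tubg2 at most 1.

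Among genes that make tubulin dimers, the share called was near that of all tested genes (26.3% in each direction). Of 14 tested genes of the chaperonin TRiC, which folds tubulin, and of prefoldin, which delivers it, 3 rose and 3 fell (21.4% each, median log2 fold change 0.08). The TRiC subunits Cct4 (0.47, 343 to 474 CPM) and Cct5 (0.41, 470 to 625 CPM) rose, with adjusted p of 0.0043 and 9.6e-04. The prefoldin subunits Pfdn6 (-0.58, 76.0 to 50.9 CPM) and Pfdn1 (-0.50, 151 to 107 CPM) fell, with adjusted p of 0.0070 and 0.0012. Of 8 tested genes of the tubulin cofactors and of autoregulation, 2 rose and 2 fell (25% each). Tbcc, a cofactor of the last step of dimer assembly, fell from 42.6 to 21.2 CPM (-1.01, adjusted p = 0.0012). Tbcd, another cofactor of dimer assembly, and Tbcel, a relative of cofactor E, rose by 0.77 and 0.89. Ttc5, the autoregulation factor, had 39.5, 38.7 and 33.7 CPM against 23.8, 23.0 and 26.0 CPM and fell by 0.62 on the log2 scale (adjusted p = 0.0016).

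Shares were also near the 26.3% in each direction for enzymes that modify tubulin and for the complex that nucleates microtubules. Of 13 tested modifying enzymes 3 rose (23.1%) and 4 fell (30.8%). Agbl5, which trims glutamate from tubulin tails, rose by 0.47 (adjusted p = 0.0045), and Ttl, which adds the terminal tyrosine to alpha-tubulin, rose by 0.29 (adjusted p = 0.027). Agbl3, another trimming enzyme, fell by 0.90 (adjusted p = 0.0019) and Ttll5, which adds glutamate, by 0.46 (adjusted p = 0.015, and 0.058 without sgkiaa1522 replicate 3). The call of Ttl was lost when any library other than sgcontrol replicate 1 was left out, with adjusted p from 0.055 to 0.093. The rises were 1 instead of 3 without sgcontrol replicate 3, sgkiaa1522 replicate 2 or sgkiaa1522 replicate 3, and the falls 2 instead of 4 without sgkiaa1522 replicate 3. Of 9 tested genes of the gamma-tubulin ring complex 2 rose and 2 fell (22.2% each). Tubgcp2, a core subunit, fell from 94.5 ± 4.22 to 40.1 CPM (log2 fold change -1.24, adjusted p = 2.7e-05), and Mzt1, a small subunit, fell by 0.44 (adjusted p = 0.0071). Tubgcp5 and Tubgcp6 rose by 0.47 and 0.39 (adjusted p = 0.0061 and 0.011).

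Among proteins that bind microtubules, 9 of 18 tested genes rose and 3 fell, beside 26.3% in each direction over all tested genes. The median log2 fold change was 0.23, and without sgkiaa1522 replicate 3 the rises were 5. Map1b, which binds microtubules in growing axons, had 6, 11 and 2 counts in the libraries labelled sgcontrol and 168, 259 and 317 in those labelled sgkiaa1522. The fitted log2 fold change of 5.41 (adjusted p = 4.2e-05) rests on very few counts in the first group, and was 6.00 without sgcontrol replicate 2. Camsap1, which holds minus ends, rose by 0.74 (adjusted p = 5.1e-04). Map6, which makes microtubules resist cold, fell from 22.4 to 4.42 CPM (-2.34, adjusted p = 2.1e-05) and Mapt, which codes for tau, from 49.9 to 13.0 CPM (-1.97, adjusted p = 0.0031). Mapt had 22.3, 9.06 and 7.66 CPM in the libraries labelled sgkiaa1522, and its log2 fold change was -2.58 without replicate 1 of these. Of 10 tested genes that destabilize microtubules 2 rose and 2 fell (20% each, below the same 26.3%). Stmn1, whose product stathmin binds free dimers, had 76.9, 78.7 and 94.3 CPM against 33.5, 38.7 and 47.5 CPM and fell by 1.06 (adjusted p = 7.8e-04). Katnal1, a katanin-like severing enzyme, and Kif2a, a kinesin that takes subunits off the ends, rose by 0.58 and 0.26. The rises in this list were 1 instead of 2 when any library other than sgcontrol replicate 1 was left out, since Kif2a was then lost (adjusted p from 0.064 to 0.097).

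**Figure D4:**
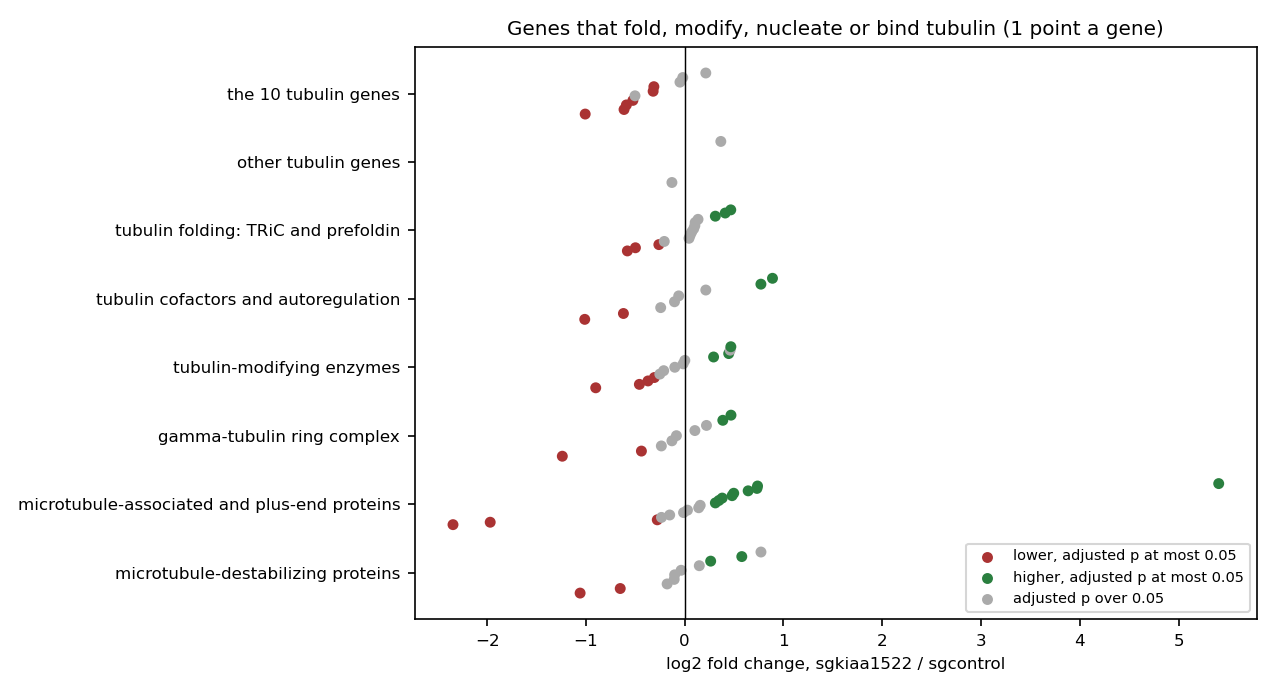
Log2 fold change (x axis) of each tested gene of the 10 tubulin genes and 7 companion lists, 1 point a gene, coloured by the test. The tubulin genes have no green point (higher), whereas each companion list with a called gene has both green and red points, and Map1b stands far right at 5.41.

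The genes most like Tuba1b across the 6 libraries, by Pearson r of log2 (CPM + 0.5), were Cenph, a kinetochore gene (r = 1.00), Gm10094 (r = 0.999) and Chtf18, a gene of replication-clamp loading (r = 0.999). For Tubb5 they were Echdc3 (r = 0.999), Bnip1 (r = 0.997) and Rfc2, a subunit of the clamp loader (r = 0.997). These are the top of a large field, since 1254 tested genes had r above 0.95 with Tuba1b and 467 with Tubb5, and the points share the difference between the groups.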

How the data were processed

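Bulk RNA-seq libraries (3 labelled sgcontrol, 3 labelled sgkiaa1522, grouped by label) were analysed. The authors filtered reads with Seqtk, mapped them to GRCm38 with HISAT2 2.0.4 and counted uniquely mapped fragments per gene with StringTie 1.3.0, and the deposited values are whole-number counts without normalization. The annotation release they used is not given in the sources used here.

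Tests covered the 10046 genes whose counts exceeded 500 in sum (99.5% to 99.6% of counts) with edgeR 4.0.16 in R 4.3.3: TMM scaling, quasi-likelihood test, no covariates, Benjamini-Hochberg adjustment, call at an adjusted p of at most 0.05. Exact permutation tests of 3 against 3 cannot go below p = 0.1, the value for each of the 6 genes that fell. TPM used summed exon lengths of GENCODE M21, which matched 34344 identifiers. The fit was tested on simulated data.

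The members and lists were chosen with earlier results of these data known. Named were all tubulin genes, the targeted gene, overlapping or near-identical genes, the 2 largest rises and 2 largest falls of each list among called genes whose groups did not overlap, and the 3 genes most like Tuba1b and Tubb5; a few items that the rule covers are not reported here. Alternatives were DESeq2 1.42.0, the exact and likelihood ratio tests, RLE and library-size scaling, 2 other filters, a replicate block, each library left out and other lengths. Summed near-identical copies and reduced lengths were chosen after seeing the data. By chi-square of the counts no library repeats another of its label.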

Additional observations from a re-analysis of the deposited data

How the results depend on the processing

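Tuba1b, Tuba1c, Tubb5 and Tubb6 kept their direction and passed the test under all 14 alternatives. Their log2 fold changes ranged from -1.11 to -0.95, -0.71 to -0.55, -0.37 to -0.28 and -0.61 to -0.48. The number of tubulin genes that fell was 5 to 6 under other tests, scalings and filters, 4 at an adjusted p of at most 0.01 and 4 to 5 with a library left out. The number also past a log2 fold change of -1 was 1, and 0 with the filterByExpr filter or, with a library left out, 0 to 1. With a library left out Tuba1a ranged from -0.79 to -0.40, Tubb2a from -0.40 to -0.27, Tuba4a from -0.65 to -0.21 and Tubb4b from -0.14 to 0.062, whose sign turned to 3.7e-04 without sgcontrol replicate 2 and to 0.062 without replicate 3. Tubb2a was not called with all genes of at least 1 count (-0.31, adjusted p = 0.053). Beyond the fewer samples in the fits that left out a library, the cause was not tested.

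Same-numbered libraries did not deviate together (correlations -0.229, -0.0530 and -0.170), so the numbers were not taken as pairs. With a replicate block Tuba4a was called (-0.46, adjusted p = 0.039), Tubb2a was not (-0.32, adjusted p = 0.098), and the rises among modifying enzymes went from 3 to 1 and among destabilizing proteins from 2 to 1. Of the other tubulin genes 1 rose and 1 fell, instead of 0 and 0, with the at-least-1-count or filterByExpr filter.

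With the mean transcript length, summed alpha TPM was 1234 and 727 in the sgcontrol and sgkiaa1522 groups (summed exons 1470 and 901) and beta TPM 3109 and 2618 (2463 and 2163). With lengths reduced by shared windows they were 3305 and 1980, and 2578 and 2281. With library size alone, summed alpha CPM of sgkiaa1522 was 677 instead of 680. Summed as 1 gene, Tuba1a, Tuba1b and Tuba1c gave -0.79 (adjusted p = 2.7e-04), Tubb2a with Tubb2b -0.10 (adjusted p = 0.15) and Tubb4b with its pseudogenes -0.03 (adjusted p = 0.79). Tubb3, with 86 to 129 counts a library, has the least depth behind it.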

Other observations

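Slc7a11, the cystine transporter, is annotated with a transcript that shares 100-base windows with Tuba1a (0.763% of its windows) and Tuba1b (1.195%). It had 488, 520 and 555 counts in the libraries labelled sgcontrol and 877, 1410 and 1420 in those labelled sgkiaa1522, the opposite direction to those genes. Outside the 10 tubulin genes, 15 annotated genes share such windows with one of them that they do not overlap. Of these, 3 have values used here: Slc7a11, Tubb4b-ps1 and Tubb4b-ps2, the last with at most 2 counts.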
